A study of Mus musculus with 48 samples.

Results

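The effect of chronic intermittent ethanol on hippocampal gene expression was compared between 72 h and 8 h after the last vapor session, in 24 of the 48 mice of the series. The quantity of interest is the CIE effect at 72 h minus the CIE effect at 8 h, where the CIE effect is the log2 signal of ethanol-exposed mice minus that of air-exposed mice killed at the same time. Members were chosen by sample title, 6 mice in each of 4 groups: CIE mice at 72 h, Ctrl mice at 72 h, CIE mice at 8 h and Ctrl mice at 8 h. A value below 0 means that CIE mice stood lower against their own controls at 72 h than at 8 h, and a value above 0 that they stood higher.

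All mice were adult male C57BL/6J, and every animal gave 1 array. CIE mice spent 16 h per day in ethanol vapor, held at 10 to 13 mg/l, on 4 days that were followed by 7 days without ethanol, and went through 4 such cycles, each opened by an intraperitoneal injection of ethanol (1.6 g/kg) and pyrazole (1 mmol/kg). Ctrl mice sat in air chambers and were given saline together with the same pyrazole, an inhibitor of alcohol dehydrogenase, so all 4 groups carry that drug and a Ctrl mouse is not an untreated mouse. The tissue was dissected hippocampus and holds many cell types, so fewer cells of a type and less RNA per cell cannot be told apart in any result below.

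In the hours after ethanol leaves the body, rodents dependent on it show a withdrawal state with raised glucocorticoid hormone, and glucocorticoids act through a nuclear receptor that induces genes such as Tsc22d3 and Sgk1. Interferons act through their receptors and signal transducers to induce guanylate-binding proteins and immunity-related GTPases, and interferon gamma also induces the major histocompatibility complex (MHC) molecules that present peptides to T cells. In brain, MHC class II and the Fc receptors for immunoglobulin G are carried mainly by microglia and by macrophages at the borders of the tissue.

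Signals were deposited as log2 values, with array medians between 6.61 and 6.62 in the 24 mice and correlations between arrays of 0.988 to 0.998. Defining genes of hippocampal neurons were well above those medians in every one of the 24 mice, with Prox1, a dentate granule cell factor, at 7.68 to 9.99 and Wfs1, a marker of CA1 pyramidal cells, at 9.85 to 11.68. Ttr, made by choroid plexus, ranged more widely, from 8.57 to 12.49. The labels give no hybridization batch, so arrays were grouped by values they share. The groups are called hybridization sets below, an origin that was not tested. Of the 48 arrays, 47 fell into 6 such sets, all 24 of 8 h and 72 h among them. Each set held exactly 1 mouse of each of the 4 groups, so that the change could also be computed inside each of 6 sets.

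At a false discovery rate (FDR) of 0.01 over 45037 probe sets (limma moderated test with Benjamini-Hochberg adjustment), the CIE effect was lower at 72 h than at 8 h for 9 probe sets, 0.02% of those tested, and higher for 1, 0.00222%. The 9 lower ones were 2 probe sets of Tsc22d3, and 1 each of Plin4, H2-Aa, H2-Ab1, Fcgr2b and Depp1, together with 2 that have no gene symbol. The single higher one is annotated to both adult alpha-globin genes. With 1 probe set per gene, 3 of 18193 genes passed, all lower: Tsc22d3, Plin4 and H2-Aa. No gene passed in the other direction, although 952 (5.23%) did at an unadjusted limma p of 0.05, where 703 (3.86%) were lower.

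A difference of differences carries more error than each of its parts. The median standard error (SE) was 0.12 on the log2 scale for the change and 0.08 for the CIE effect at either time, and the smallest change that passed was 0.57 in size. At FDR 0.05, 58 probe sets passed, 47 lower and 11 higher, and in terms of genes 22 were lower, 0.121% of the genes, and 7 were higher, 0.0385%. These 29 genes are used below to describe the gene groups and are named as FDR 0.05 throughout. With the hybridization set as a block, no probe set passed FDR 0.01, 13 passed FDR 0.05 and 3296 had an unadjusted p under 0.05, and the 10 probe sets listed above had adjusted p between 0.0188 and 0.042 in that limma fit. Of the 29 genes at FDR 0.05, 4 stayed under 0.05 with the block, namely Tsc22d3, Plin4, H2-Aa and Ifi47, and the other 25 had adjusted p of 0.061 to 0.115. Each gene below that is said to have passed FDR 0.05 and is not among those 4 lost that call with the block.

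The count also depended on single animals. With limma at FDR 0.01, no probe set passed without Ctrl 8 h mouse 42, Ctrl 8 h mouse 79 or CIE 72 h mouse 33, while 35 were lower and 3 higher without Ctrl 8 h mouse 4, and 21 lower and 2 higher without Ctrl 8 h mouse 66. Each of the 10 probe sets nevertheless kept its direction and an adjusted p of at most 0.0316 in all 24 fits with 1 mouse left out. The calls at FDR 0.05 were less stable, with 13 to 122 probe sets lower and 2 to 27 higher, and between 15 and 57 of the 58 kept. Tsc22d3, Plin4, H2-Aa and Ifi47 passed FDR 0.05 in all 24 fits, whereas 15 of the 29 genes passed in fewer than 12 of them, among them H2-Eb1 (8 fits), Cxcl10, H2-D1, Trim21 and Mbd4 (7 fits each) and Sgk1 (10 fits).

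The CIE effects from which the change is formed differed greatly in how many probe sets they called. At 72 h, 3 probe sets passed FDR 0.01 (0.00666%), 2 higher and 1 lower, against 967 (2.15%) at 8 h, 694 higher and 273 lower. These numbers do not by themselves show a difference between times. Of the 967 probe sets called at 8 h, 10 had a change that passed FDR 0.01, 54 passed FDR 0.05 and 689, or 71.3%, had an unadjusted p under 0.05 for the change. All 689 changed against the sign of their 8 h effect, a direction that choosing them on the 8 h mice favours.

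**Figure D1:**
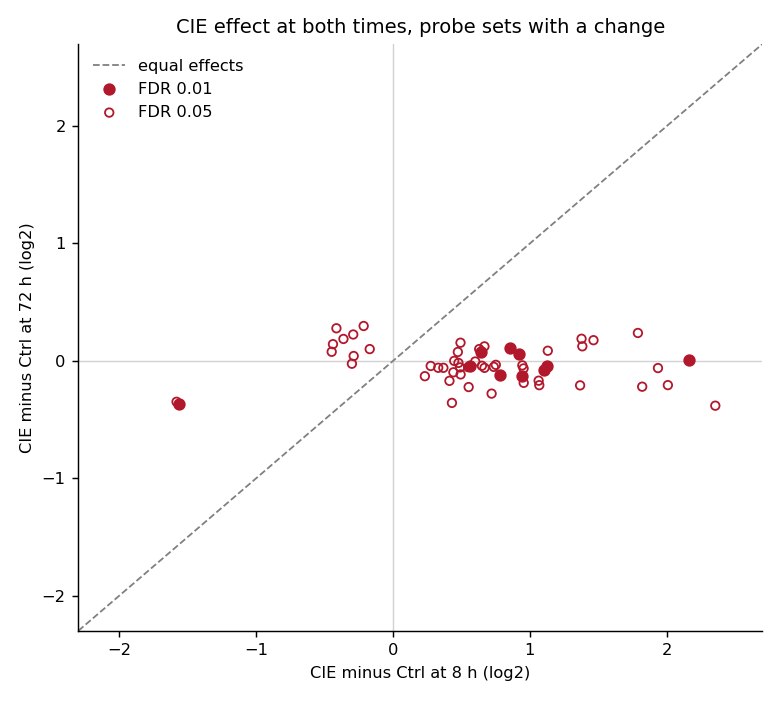
CIE effect at 72 h (vertical axis, log2) against the CIE effect at 8 h (horizontal axis, log2) for the 58 probe sets whose change passed FDR 0.05, filled where it passed FDR 0.01, with a dashed line of equal effects. The points lie along the horizontal zero line, with a median absolute effect of 0.10 at 72 h and 0.66 at 8 h, and the choice of points used the same mice.

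Tsc22d3 encodes the glucocorticoid-induced leucine zipper, an anti-inflammatory mediator of glucocorticoid action. Its signal (probe set 1420772_a_at) had a lowest, median and highest value of 10.06, 10.21 and 10.35 in CIE mice at 72 h, against 10.16, 10.31 and 10.51 in Ctrl mice at 72 h. The CIE mice of 8 h had 10.95, 11.13 and 11.30, against 10.17, 10.28 and 10.55 in the Ctrl mice of 8 h. Every CIE mouse at 8 h was therefore above every Ctrl mouse of that time, whereas the ranges at 72 h overlapped. The CIE effect was -0.12 at 72 h and 0.78 at 8 h, a change of -0.90 ± 0.14 (SE, 6 mice per group, limma adjusted p = 0.0057, 95% interval -1.19 to -0.61). Inside the 6 hybridization sets the change ran from -1.09 to -0.72, below 0 in all 6. A further probe set, 1425281_a_at, changed by -1.07 ± 0.19 (adjusted p = 0.00741), while 2 others of the gene had -0.31 and -0.22 and did not pass (adjusted p = 0.27 and 0.733).

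Plin4, a coat protein of lipid droplets that glucocorticoids induce, had 5.96, 6.06 and 6.24 in CIE mice at 72 h (lowest, median, highest) and 5.85, 6.14 and 6.23 in Ctrl mice at 72 h. At 8 h the CIE mice had 6.87, 7.41 and 8.03 and the Ctrl mice 6.00, 6.36 and 6.42. The CIE mice of 8 h were thus clear of their controls and also more spread out than any other group. The CIE effect was -0.04 at 72 h and 1.13 at 8 h, the 8 h value being a 2.18-fold difference, and the change was -1.17 ± 0.19 (adjusted p = 0.0057), between -2.20 and -0.53 within the 6 sets.

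The list of glucocorticoid-induced genes had 26 measured members. By the chosen probe set of each gene, 2 were lower at FDR 0.01 (Tsc22d3 and Plin4), 3 at FDR 0.05 and 11 at an unadjusted p of 0.05, with no member higher under that last rule. Over all genes, 3.86% were lower and 5.23% higher at the unadjusted threshold. The median change of the members was -0.26, formed from -0.04 at 72 h and 0.24 at 8 h, beside a median change over all genes of 0.006. The third member at FDR 0.05 was Sgk1, the serum and glucocorticoid regulated kinase, which changed by -0.60 ± 0.13 (adjusted p = 0.0412) from an effect of -0.05 at 72 h and 0.55 at 8 h.

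Other members of that list had values of the same sign that did not pass. Sult1a1, a sulfotransferase, had a change of -0.85 (adjusted p = 0.0549), Cdkn1a, the cell cycle inhibitor p21, had -0.69 (0.0947) and Arrdc2 had -0.70 (0.102). Mean signal over the list was 9.18 to 9.30 in CIE mice at 72 h and 9.10 to 9.29 in Ctrl mice at 72 h, against 9.43 to 9.75 in CIE mice at 8 h and 9.21 to 9.34 in Ctrl mice at 8 h. Only the CIE mice of 8 h stood apart, and the change of the list mean was below 0 in all 6 hybridization sets, from -0.50 to -0.08.

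Depp1, a regulator of autophagy and a target of FOXO factors, was called by probe set 1433837_at at -0.57 ± 0.10 (adjusted p = 0.00937). Its levels were 6.70, 6.92 and 7.06 in CIE mice and 6.76, 6.82 and 6.94 in Ctrl mice at 72 h, against 7.23, 7.44 and 7.51 in CIE mice and 6.59, 6.73 and 6.99 in Ctrl mice at 8 h. The brighter probe set of the gene gave -0.24 (adjusted p = 0.592). Fam107a, a stress-responsive actin-binding protein, likewise passed FDR 0.05 by 1 probe set (1435918_at, -0.69, adjusted p = 0.0368) and not by its brighter one (-0.08, adjusted p = 0.86).

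**Figure D2:**
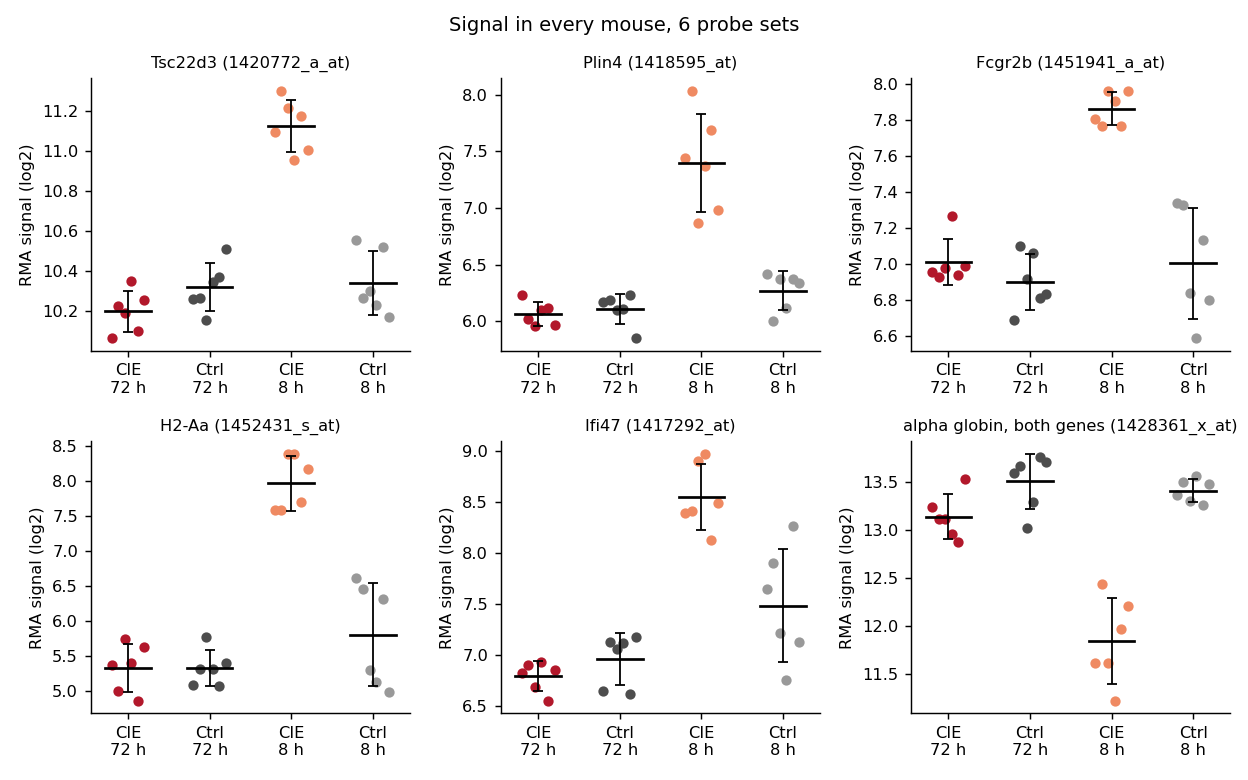
RMA signal (log2, vertical axis) of 6 probe sets in each of the 24 mice, with the mean (bar) and SD (whisker) of 6 mice per group. For Tsc22d3, Plin4, Fcgr2b and H2-Aa the CIE mice of 8 h sit above the 3 other groups, for the probe set of both alpha-globin genes they sit below, and Ifi47 has 1 Ctrl mouse of 8 h inside the CIE range.

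H2-Aa encodes the alpha chain of the MHC class II molecule I-A and had the largest change among the called probe sets. Its signal was 4.86, 5.38 and 5.74 in CIE mice at 72 h (lowest, median, highest), against 5.07, 5.31 and 5.77 in Ctrl mice at 72 h. At 8 h it was 7.58, 7.93 and 8.39 in CIE mice, against 4.99, 5.80 and 6.61 in Ctrl mice. The groups of 72 h were superimposed, and the CIE mice of 8 h had no value in common with any other group. The CIE effect was 0.00 at 72 h and 2.17 at 8 h, which is 4.48-fold, giving a change of -2.16 ± 0.38 (adjusted p = 0.00606) and a range of -3.17 to -0.69 within the 6 sets.

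H2-Ab1, the beta chain of the same molecule, was called by probe set 1425477_x_at (-1.19 ± 0.22, adjusted p = 0.00937). Its probe set 1451721_a_at gave -2.0 (adjusted p = 0.017) and the brightest one -2.16 with a larger SE of 0.52 (adjusted p = 0.07). H2-Eb1, beta chain of the I-E molecule, changed by -2.22 ± 0.47 at FDR 0.05 (adjusted p = 0.0342) and H2-Oa, part of the H2-O protein that tempers peptide loading, by -0.98 ± 0.19 (0.0208). Ctss, the protease cathepsin S that degrades the invariant chain, changed by -0.55 ± 0.11 (0.0319).

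The MHC class II list had 11 measured members, of which 1 was lower at FDR 0.01, 4 at FDR 0.05 and 9 at an unadjusted p of 0.05, with none higher. The median change was -0.55, from -0.06 at 72 h and 0.49 at 8 h. Cd74, the invariant chain, had -1.45 (adjusted p = 0.0695) and Ciita, the master coactivator of class II genes, had -0.16 (0.776). The class II transcripts and their coactivator thus stood at different distances from the threshold.

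Promoters of H2-Aa and H2-Eb1 are shown, not those of every class II gene that passed. They were picked because they hold an inverted CCAAT motif (ATTGG), the sequence of the Y box of class II promoters. Capitals mark CCAAT on either strand at any position, and the H2-Eb1 match at -35 is not inverted. This motif was chosen after the values were seen. The stretches are RefSeq sequence of build GRCm38.p6, chr17:34287795-34287944 on the minus strand for H2-Aa, positions -121 to 29 relative to the gene's start, and chr17:34305747-34305896 on the plus strand for H2-Eb1, positions -120 to 30.
H2-Aa: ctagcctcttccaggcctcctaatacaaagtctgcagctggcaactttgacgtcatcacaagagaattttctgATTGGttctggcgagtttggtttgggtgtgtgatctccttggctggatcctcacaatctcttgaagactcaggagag
H2-Eb1: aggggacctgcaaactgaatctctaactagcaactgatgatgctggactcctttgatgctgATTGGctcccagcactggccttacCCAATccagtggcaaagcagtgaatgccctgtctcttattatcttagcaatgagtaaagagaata
Of the 8 class II members with a promoter in the table, 7 held CCAAT on either strand. As 37.4% of the 32851 promoters of the same length also did, such a match is common. The member without one was Ctss, which had passed. H2-Oa had passed as well and held one, but is not shown. Here and in the motif counts below, a gene counted if any of its promoters held the motif. The shares of all promoters are over single promoters, and some genes have several, so the units differ.

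Among MHC class I and peptide loading genes, 12 were measured and 2 passed FDR 0.05. Erap1, the peptidase that trims peptides in the endoplasmic reticulum, changed by -0.54 ± 0.11 (adjusted p = 0.0319) and H2-D1, a class I heavy chain, by -1.29 ± 0.29 (0.0439). H2-D1 signal was 6.46, 7.16 and 7.38 in CIE mice and 6.57, 6.94 and 7.25 in Ctrl mice at 72 h, against 8.15, 8.32 and 8.67 in CIE mice and 6.19, 6.89 and 7.65 in Ctrl mice at 8 h. A total of 10 of the 12 members were lower at an unadjusted p of 0.05, and the median change was -0.66, from -0.02 at 72 h and 0.61 at 8 h. Beta 2-microglobulin (B2m, -0.78, adjusted p = 0.0627) and the peptide transporter subunit Tap1 (-0.97, 0.0695) did not pass. Class I genes are near-identical in sequence, and other probe sets of H2-D1 gave anything between -1.20 and 0.21, so single members of the family are uncertain.

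The immunoproteasome, which makes peptides for class I, had 4 measured subunits. None passed FDR 0.05 and all 4 had an unadjusted p under 0.05, with the lowest adjusted p for Psmb9 (-1.22, 0.0599). The 31 subunits of the constitutive proteasome had a median change of -0.01, with 2 lower at the unadjusted threshold.

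Interferon-inducible GTPases, which act against intracellular pathogens at membranes, showed the lowest median change of the 23 pathway lists. All 11 measured members were lower at an unadjusted p of 0.05, 3 passed FDR 0.05 and none passed FDR 0.01, and the median of -1.62 came from -0.18 at 72 h and 1.40 at 8 h. Ifi47 had 6.55, 6.84 and 6.93 in CIE mice at 72 h and 6.62, 7.09 and 7.18 in Ctrl mice at 72 h, against 8.13, 8.45 and 8.97 in CIE mice at 8 h and 6.75, 7.43 and 8.26 in Ctrl mice at 8 h. The top Ctrl mouse of 8 h lay inside the CIE range. Ifi47 changed by -1.23 ± 0.23 (adjusted p = 0.0119) and Irgm1, an immunity-related GTPase that regulates the others, by -1.58 ± 0.32 (0.0263). Gm4951 changed by -2.04 ± 0.42 (0.0288), and the guanylate-binding proteins Gbp2 (-1.73, 0.0702) and Gbp6 (-2.04, 0.0986) did not pass.

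The spread behind these values came mostly from 1 group. Mean signal over the GTPase list was 6.94 to 7.37 in CIE mice and 6.85 to 7.93 in Ctrl mice at 72 h, against 9.04 to 9.84 in CIE mice at 8 h. The Ctrl mice of 8 h had 9.01 (mouse 66), 8.75 (mouse 4), 8.47 (mouse 8), 7.53 (mouse 32), 7.05 (mouse 79) and 6.99 (mouse 42). In that group 3 mice approached the CIE level and 3 did not, and the SD of 0.89 exceeded the 0.32 of the CIE mice of 8 h. The same mice were high for MHC class I, with 8.03 (mouse 66), 7.89 (mouse 4) and 7.77 (mouse 8) against 7.09 to 7.35 in the other Ctrl mice of 8 h. For glucocorticoid-induced genes they were not set apart, with 9.26, 9.34 and 9.31 in mice 66, 4 and 8 and 9.21 to 9.34 in the others. Inside the hybridization sets the change of the GTPase list mean was below 0 in 5 of 6, at -2.95, -2.87, -2.68, -0.83 and -0.07, and it was 0.02 in the set of mouse 66. The sets of Ctrl mice 4 and 66 thus showed next to no change, for MHC class I as well (0.02 and -0.08), while for MHC class II all 6 sets were below 0, from -1.66 to -0.11. The median change over the GTPase members lay between -1.82 and -1.42 with any 1 mouse left out, and the part of these Ctrl mice in the result was not tested beyond that.

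**Figure D3:**
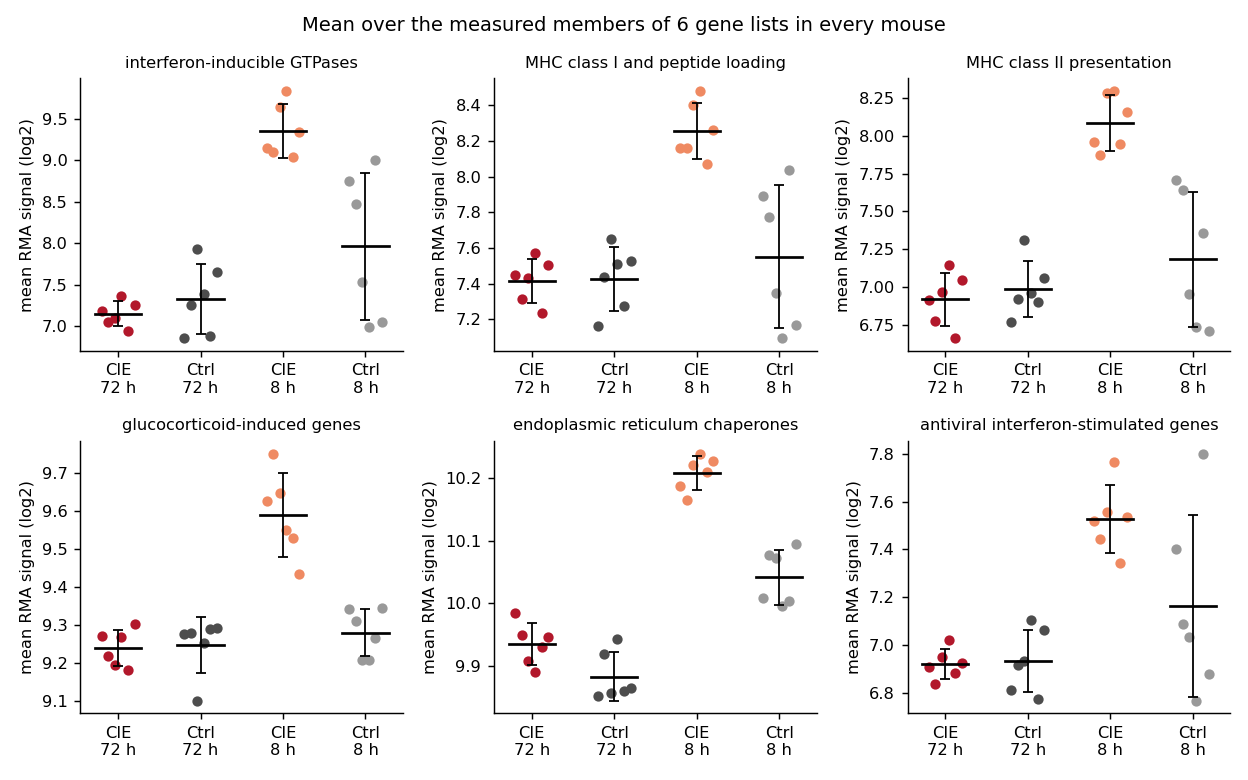
Mean RMA signal (log2, vertical axis) over the measured members of 6 gene lists in each of the 24 mice, with the mean (bar) and SD (whisker) of 6 mice per group. CIE mice of 8 h have the highest mean in each panel, and Ctrl mice of 8 h split between 6.99 and 9.01 for interferon-inducible GTPases.

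Promoters of 3 interferon-responsive genes with a probe set at FDR 0.05 were chosen because they hold the interferon-stimulated response element, searched as GAAANNGAAA on both strands and printed in capitals (RefSeq, GRCm38.p6). They are chr11:48871371-48871520 on the minus strand for Irgm1, positions -100 to 50 relative to the start, chr3:142530213-142530362 on the plus strand for Gbp7, positions -123 to 27, and chr5:92348990-92349139 on the minus strand for Cxcl10, positions -250 to -101.
Irgm1: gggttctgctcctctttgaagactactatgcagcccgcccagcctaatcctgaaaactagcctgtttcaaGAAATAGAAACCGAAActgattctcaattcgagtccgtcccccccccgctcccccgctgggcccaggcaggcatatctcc
Gbp7: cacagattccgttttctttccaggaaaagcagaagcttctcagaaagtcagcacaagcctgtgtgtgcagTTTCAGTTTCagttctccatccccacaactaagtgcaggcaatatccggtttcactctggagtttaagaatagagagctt
Cxcl10: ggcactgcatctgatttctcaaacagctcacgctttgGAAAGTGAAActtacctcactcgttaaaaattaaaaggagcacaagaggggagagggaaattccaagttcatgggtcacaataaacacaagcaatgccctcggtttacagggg
The Irgm1 promoter holds 2 overlapping matches. Of the 7 listed GTPase genes with a promoter in the table, 6 held at least 1 match (Gbp2, Gbp3, Gbp7, Igtp, Irgm1 and Irgm2), where 3.44% of all promoters did. The one without a match was Ifi47, the member with the smallest p.

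Gbp7 passed by 1 probe set (1425156_at, -1.14, adjusted p = 0.028) and not by its brighter one (-0.93, 0.111). Cxcl10, a chemokine that attracts activated T cells, had 5.50, 5.75 and 5.85 in CIE mice and 5.26, 5.51 and 5.78 in Ctrl mice at 72 h, against 7.55, 7.65 and 8.09 in CIE mice and 5.48, 6.19 and 7.36 in Ctrl mice at 8 h. The Ctrl mice of 8 h thus spanned most of the distance to the CIE mice. Cxcl10 changed by -1.19 ± 0.26 (adjusted p = 0.0368), the 1 member of 31 measured chemokines and cytokines at FDR 0.05, and 12 members were lower at the unadjusted threshold. Ccl12 had -1.49 (0.0695) and Il6, the cytokine interleukin 6, had -0.49 (0.0805).

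Of 48 antiviral interferon-stimulated genes, 1 passed FDR 0.05, Trim21, an intracellular antibody receptor (-0.73 ± 0.16, adjusted p = 0.0438). There were 22 lower and 0 higher at an unadjusted p of 0.05 in limma, and the median change was -0.33, from 0.01 at 72 h and 0.32 at 8 h. Genes of interferon receptors and signalling had a median change of -0.13 over 20 members, none at FDR 0.05, with the lowest adjusted p for the factor Irf1 (-0.74, 0.0805).

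Receptors for immunoglobulin G were also among the genes that passed. Fcgr2b, the inhibitory receptor, was called by probe set 1451941_a_at, with 6.93, 6.97 and 7.27 in CIE mice and 6.69, 6.88 and 7.10 in Ctrl mice at 72 h, against 7.77, 7.86 and 7.96 in CIE mice and 6.59, 6.99 and 7.34 in Ctrl mice at 8 h. The 6 CIE mice of 8 h lay close together and above all others, and the change was -0.75 ± 0.13 (adjusted p = 0.0057). Its brightest probe set gave -0.23 (0.703). Fcgr3, an activating receptor, changed by -0.61 ± 0.13 (0.0319). Of 12 measured complement genes none passed FDR 0.05, and C1qa, a subunit of the first component, had -0.60 (0.08).

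Cell type markers were measured beside these immune genes. The 13 measured microglial markers had a median change of -0.14, and their mean signal was 8.65 to 8.91 in CIE mice and 8.72 to 9.07 in Ctrl mice at 72 h, against 8.72 to 8.94 in CIE mice and 8.68 to 8.98 in Ctrl mice at 8 h, so that the groups overlapped. Within the list Fcrls, a receptor of resident microglia, stood the other way, with an effect of -0.12 at 72 h and -0.78 at 8 h and a change of 0.66 (adjusted p = 0.0695). The 8 measured markers of T cells and natural killer cells had a median change of -0.22, with 4 lower at the unadjusted threshold and none at FDR 0.05. Their mean signal was 5.55 to 5.82 in CIE mice and 5.44 to 5.59 in Ctrl mice at 72 h, against 5.71 to 6.02 in CIE mice and 5.22 to 5.63 in Ctrl mice at 8 h. Cd3g, a chain of the T cell receptor complex, had an effect of 0.26 at 72 h and 0.84 at 8 h (change -0.58, adjusted p = 0.246). The list of border macrophages and monocytes had a median change of -0.28, from -0.08 at 72 h and 0.26 at 8 h, with all 8 members below 0, 2 of them at the unadjusted threshold and none at FDR 0.05. Its mean signal was 5.39 to 5.87 in CIE mice and 5.37 to 5.83 in Ctrl mice at 72 h, against 5.61 to 5.95 in CIE mice and 5.36 to 5.75 in Ctrl mice at 8 h, and its change was below 0 in all 6 hybridization sets, from -0.67 to -0.03. F13a1, a coagulation factor subunit made by macrophages, had -0.72 (adjusted p = 0.12), and Cd163, a scavenger receptor of such cells, had -0.66 (0.32). This list therefore moved in the same direction as the class II and Fc receptor genes. The T and natural killer cell list was also below 0 in all 6 sets, from -0.56 to -0.06. B cell markers went the other way, with a median change of 0.17 over 5 members, 1 of them (Ighm) higher at the unadjusted threshold, and set changes of -0.08 to 0.76. The 7 neutrophil markers had a median of 0.03. Mean signals of the lists other than microglia lay below the array medians of 6.61 to 6.62. Whether a different number of cells of these types contributes to the immune values was not tested.

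Endoplasmic reticulum chaperones fold secreted and membrane proteins and are induced when unfolded protein builds up. Of 28 measured, 1 passed FDR 0.05, 9 were lower at the unadjusted threshold and none higher, and the median change was -0.13, from 0.07 at 72 h and 0.17 at 8 h. Manf, a secreted factor of the stressed endoplasmic reticulum, had 10.10, 10.27 and 10.45 in CIE mice and 10.09, 10.21 and 10.26 in Ctrl mice at 72 h, against 10.96, 11.05 and 11.14 in CIE mice and 10.41, 10.59 and 10.77 in Ctrl mice at 8 h. Both kinds of mice were lower at 72 h, and CIE mice more so. The change was -0.40 ± 0.08 (adjusted p = 0.0319), made of -0.79 in CIE mice and -0.39 in Ctrl mice between the harvests, and Manf was the 1 probe set among the 47 lower ones whose fall in Ctrl mice passed FDR 0.01.

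Dnajc3, a cochaperone of the same compartment, passed FDR 0.05 by probe set 1419163_s_at (-0.34 ± 0.07, adjusted p = 0.0288) and not by its brightest one (-0.14, 0.795). Unlike the immune genes, that probe set kept every CIE mouse above every Ctrl mouse at 72 h as well, with 9.24, 9.29 and 9.38 in CIE mice and 9.06, 9.15 and 9.19 in Ctrl mice, against 9.73, 9.77 and 9.84 in CIE mice and 9.17, 9.26 and 9.52 in Ctrl mice at 8 h. Other probe sets of Dnajc3 had 72 h effects of -0.58, -0.15, -0.003 (the brightest) and 0.23, so the separation does not stand for the gene. Its promoter, chr14:118937761-118937910 on the plus strand (RefSeq, GRCm38.p6), positions -171 to -22 relative to the start, is shown for the ER stress response element, searched on both strands as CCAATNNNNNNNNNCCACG and capitalised.
Dnajc3: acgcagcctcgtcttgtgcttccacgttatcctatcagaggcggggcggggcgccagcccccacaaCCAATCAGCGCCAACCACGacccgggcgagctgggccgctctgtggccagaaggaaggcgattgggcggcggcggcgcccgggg
The element was in the promoters of 9 of the 24 chaperone genes in the table and in 0.119% of all promoters. No match to ACANNNTGT, a core of the glucocorticoid response element searched on both strands, was found in the promoter windows of Tsc22d3 or Plin4. Of the 22 glucocorticoid-induced genes with a promoter in the table, 4 held one (Lcn2, Map3k6, Mt1 and Sgk1), as did 6.85% of all promoters.

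Oxidative stress genes of the NRF2 pathway had 1 member at FDR 0.05 of 25 measured. Gclm, the modifier subunit of the enzyme that starts glutathione synthesis, had an effect of -0.13 at 72 h and 0.23 at 8 h and changed by -0.36 ± 0.08 (adjusted p = 0.0357). Sulfiredoxin (Srxn1) passed by 1 probe set (1451680_at, -0.45, 0.048) and not by its brighter one (-0.24, 0.388). Further single genes at FDR 0.05 were Nfkbia, the inhibitor of NF-kappa B (1448306_at, -0.58, 0.0319), Bmp4, a bone morphogenetic protein (-0.79, 0.0368), Ifrd1, a transcriptional coregulator (-0.39, 0.0208), and Plekhf1, a protein of endosomes and lysosomes (-0.78, 0.0208). Bmp4 crossed 0, at -0.36 at 72 h and 0.43 at 8 h. Nfkbia had 4 other probe sets with changes of -0.42 to -0.13, none of which passed.

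**Figure D4:**
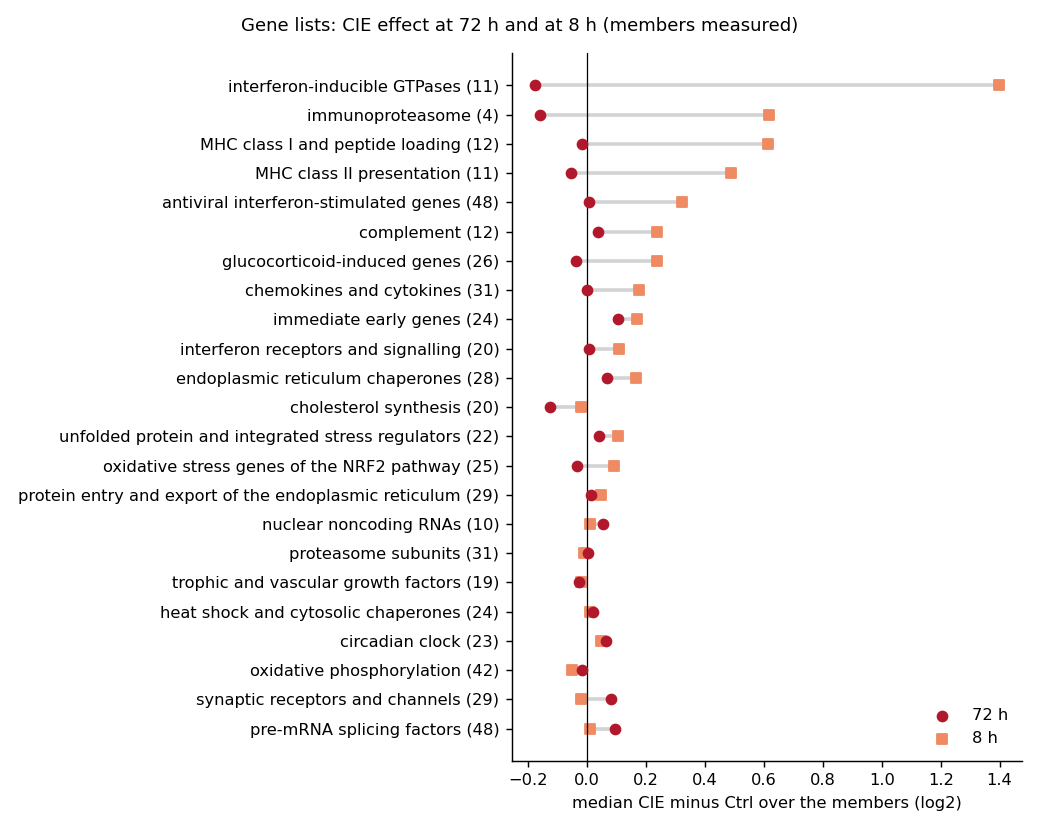
Median CIE effect (log2, horizontal axis) over the measured members of each of the 23 pathway lists, with circles for 72 h and squares for 8 h and the number of members in brackets. Interferon-inducible GTPases have the widest gap (-0.18 at 72 h, 1.40 at 8 h), while pre-mRNA splicing factors lie at 0.09 at 72 h and 0.01 at 8 h.

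Lists in which no member passed FDR 0.05 are as much part of the result. Heat shock and cytosolic chaperones had a median change of 0.03 over 24 members, oxidative phosphorylation 0.05 over 42, the circadian clock 0.03 over 23 and synaptic receptors and channels 0.05 over 29, and none of their members passed FDR 0.05. Immediate early genes had a median of -0.16 with 0 of 24 members lower and 1 higher at the unadjusted threshold in limma, and Fos had an effect of 0.21 at 72 h and 0.78 at 8 h with an adjusted p of 0.635 for the change. Pre-mRNA splicing factors had a median of 0.08 over 48 members, 8 higher and 0 lower at the unadjusted threshold, against 5.23% of all genes higher. The change of their mean was above 0 in all 6 hybridization sets, from 0.01 to 0.17. The lowest adjusted p among them was 0.219, for Luc7l3.

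The 1 called probe set in the higher direction, 1428361_x_at, is annotated to both adult alpha-globin genes. Its signal was 12.87, 13.11 and 13.53 in CIE mice and 13.02, 13.63 and 13.75 in Ctrl mice at 72 h, against 11.22, 11.79 and 12.43 in CIE mice and 13.25, 13.42 and 13.56 in Ctrl mice at 8 h. All CIE mice of 8 h were below all other mice. The CIE effect was -0.37 at 72 h and -1.56 at 8 h, a change of 1.20 ± 0.22 (adjusted p = 0.00937), and it was above 0 in all 6 hybridization sets. Probe set 1452757_s_at of the same genes gave 1.23 ± 0.23 (0.0106), and one annotated to 4 adult beta-globin genes gave 1.10 (0.08). In mice that the change did not use, 1428361_x_at had an effect of -1.11 (1.66e-05) at 0 h and 0.32 (0.215) at 7 d. The red blood cell list, whose globin members with a single symbol are other probe sets, had a median change of 0.14 over 5 members, none at FDR 0.05. Its mean signal was only 4.80 to 5.22, below the array medians of 6.61 to 6.62, so that change says little about the far brighter called probe set. Blood content of the tissue, which would move globin transcripts together, was not tested.

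The 7 genes higher at FDR 0.05 had smaller changes. Mbd4, a DNA glycosylase, had 8.45, 8.72 and 8.97 in CIE mice and 8.38, 8.39 and 8.61 in Ctrl mice at 72 h, against 7.93, 8.13 and 8.27 in CIE mice and 8.28, 8.52 and 8.86 in Ctrl mice at 8 h, and changed by 0.69 ± 0.15 (adjusted p = 0.044). CIE mice stood above most Ctrl mice at 72 h and below all of them at 8 h. The condensin subunit Ncapd2 changed by 0.51 (0.0319), the ciliary protein Tmem107 by 0.55 (0.0319), the Integrator subunit Ints3 by 0.33 (0.0319), the phosphoribosyl pyrophosphate synthetase partner Prpsap1 by 0.28 (0.0405) and the telomere protein Terf2 by 0.27 (0.0414). The seventh, 4831440E17Rik, changed by 0.52 (0.0438). These genes had a median CIE effect of 0.19 at 72 h and -0.29 at 8 h.

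The change can be split into what happened between the harvests in each kind of mouse. CIE mice of 72 h differed from CIE mice of 8 h in 1181 probe sets at FDR 0.01 (2.62%), 406 higher and 775 lower, and Ctrl mice of 72 h from Ctrl mice of 8 h in 51 (0.113%), 17 higher and 34 lower. For the 47 probe sets with a lower change at FDR 0.05, the median difference between harvests was -0.87 in CIE mice and -0.10 in Ctrl mice, and it was larger in size in CIE mice for all 47. For the 11 higher ones it was 0.37 in CIE mice and -0.11 in Ctrl mice. As these probe sets were selected on the same 24 mice, the split is a description.

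The 24 mice of 0 h and 7 d, which the change did not use, provide a separate reading. The 22 genes with a lower change had a CIE effect above 0 at 0 h in all 22, with a median of 0.57, where 65.7% of all genes were above 0. Of the 22, 12 were called higher there at FDR 0.01, beside 1.27% of all genes called higher and 0.374% lower at 0 h. At 7 d, 17 of the 22 were above 0, beside 61.8% of all genes, and the median was 0.15. None of the 22 was called at 7 d in limma at FDR 0.01, where 0.879% of all genes were called higher and 0.165% lower. The 7 genes with a higher change had a median of -0.02 at 0 h, with 3 above 0 and 1 called lower. At 7 d their median was -0.03, with 1 above 0 and none called. Plin4 and Tsc22d3 had effects of 1.25 (adjusted p = 2.04e-07) and 0.62 (0.000255) at 0 h, and -0.14 (0.642) and 0.17 (0.367) at 7 d. H2-Aa had 0.97 (0.0213) at 0 h and 0.04 (0.957) at 7 d. Fcgr2b (1451941_a_at) was called at both, with 0.78 (4.76e-07) at 0 h and 0.43 (0.00396) at 7 d. Manf had 0.01 at 0 h and -0.05 at 7 d. Ifrd1 had 0.03 (0.806) at 0 h. Of the probe sets called at FDR 0.01, that of Depp1 had -0.05 (0.791) and 1458314_at had -0.03 (0.868) at 0 h, so neither showed there the effect it had at 8 h.

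The 300 genes called higher at 8 h were followed through the other times, at each of which different mice were used. Their CIE effect had a median of 0.18 in the mice of 0 h, 0.38 in those of 8 h, 0.07 in those of 72 h and 0.16 in those of 7 d. The share with an effect above 0 was 89.7% at 0 h, 72.7% at 72 h and 91.3% at 7 d, against 65.7%, 57% and 61.8% of all genes. At FDR 0.01, 54 (18%), 0 and 28 (9.33%) of the 300 were called higher at those times, beside 1.27%, 0 and 0.879% of all genes. As no gene at all was called higher at 72 h, the 0 there is not particular to the 300. The 72 h values were thus the lowest of the series and those of 7 d lay above them, but times were not tested against each other over the set. For the 120 genes called lower at 8 h these medians were -0.08, -0.30, -0.07 and -0.04 in the same order of times.

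**Figure D5:**
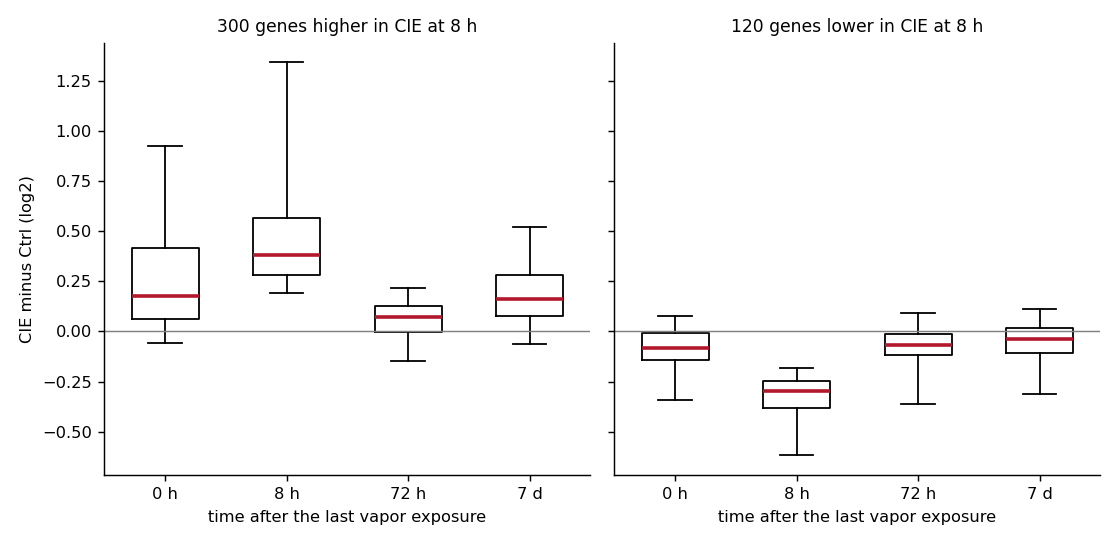
CIE effect (log2, vertical axis) at 4 times after the last exposure for the 300 genes called higher and the 120 called lower at 8 h (FDR 0.01), as median (red), quartiles (box) and the range from the 5th to the 95th percentile (whiskers) over genes. In the panel of the 300 genes the medians are 0.18, 0.38, 0.07 and 0.16, and the 8 h values are those used to choose the genes.

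The genes with a CIE effect at 72 h were read for their change. Of 21 genes that passed FDR 0.05 at 72 h, 1 passed FDR 0.01, Fam81a, and none had a change at FDR 0.05, which 0.159% of all genes had, so that a count of 0 among 21 is no more than that share gives. In limma's unadjusted test, 3 of them had p under 0.05 for the change, Rest, Ube2d1 and Ywhae, beside 9.1% of all genes. The 72 h mice on which the 21 genes were chosen also enter the change, which favours the direction of the 72 h effect. Fam81a had 10.65, 10.86 and 11.12 in CIE mice and 11.34, 11.54 and 11.70 in Ctrl mice at 72 h, against 10.76, 10.98 and 11.24 in CIE mice and 11.03, 11.43 and 11.78 in Ctrl mice at 8 h. The effect was -0.68 ± 0.11 at 72 h (adjusted p = 0.00673) and -0.45 at 8 h, and the change of -0.23 had a 95% interval of -0.55 to 0.09. Dlgap2, a postsynaptic scaffold protein, had -0.97 at 72 h (0.0495) and -1.01 at 8 h, with an interval of -0.59 to 0.65 for the change, so that sizeable changes in either direction lie within it. Gabrg3, the gamma 3 subunit of the GABA A receptor, had -0.86 at 72 h (0.0167) and -0.55 at 8 h, with an interval of -0.78 to 0.15. Other probe sets of Gabrg3 did not show this, with effects of -0.07 to 0.18 at 72 h and 0.03 to 0.28 at 8 h. The chosen probe sets of Dlgap2 and Gabrg3 were also lower at 7 d at FDR 0.01, at -1.0 for Dlgap2 (0.00577) and -1.0 for Gabrg3 (0.00071).

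Narrower intervals were obtained for other genes of that kind. Gtf2a1, a general transcription factor subunit, had effects of 0.35 at 72 h and 0.45 at 8 h and an interval of -0.29 to 0.09. Its other probe sets had -0.06 and 0.15 at 72 h and 0.08 and 0.14 at 8 h. The kinase subunit Csnk2a2 had -0.24 and -0.26 with an interval of -0.12 to 0.17, by 1453099_at only. Other probe sets of Csnk2a2 had effects of -0.04 to 0.16 at 72 h and -0.03 to 0.40 at 8 h. Rest, the repressor of neuronal genes, had -0.49 at 72 h (0.0167) and -0.15 at 8 h, and its change of -0.34 did not pass (0.361). Other probe sets of Rest had effects of -0.08 to 0.04 at 72 h and 0.01 to 0.07 at 8 h. The other 2 probe sets called at 72 h have no symbol and were chosen for mention after their values were seen. One of them, 1455869_at, had 7.81, 7.99 and 8.06 in CIE mice and 6.00, 6.56 and 7.50 in Ctrl mice at 72 h, against 7.03, 7.29 and 8.01 in CIE mice and 7.03, 7.42 and 7.89 in Ctrl mice at 8 h. Its effect was 1.35 at 72 h and 0.00 at 8 h, and the change of 1.36 had an adjusted p of 0.0695.

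Markers of hippocampal subfields and of myelin varied between mice by more than most of the changes above. The 6 dentate granule cell markers had a median change of 0.71, with none passing even the unadjusted threshold in limma (adjusted p = 0.82 for C1ql2, the lowest). Their mean signal was 9.64 to 10.41 in CIE mice and 8.44 to 10.27 in Ctrl mice at 72 h, against 8.63 to 10.26 in CIE mice and 8.87 to 10.34 in Ctrl mice at 8 h. The change of this mean was nevertheless above 0 in all 6 hybridization sets, from 0.15 to 1.38. The 4 measured CA1 markers had a median of -0.43, also with none passing. The 9 oligodendrocyte markers had -0.34, with 4 lower at the unadjusted threshold, among them Mog (-0.76, adjusted p = 0.365), and mean signals of 10.16 to 10.48 in CIE mice and 10.22 to 10.64 in Ctrl mice at 72 h, against 10.37 to 10.87 in CIE mice and 10.15 to 10.82 in Ctrl mice at 8 h. The part of dissection in the values of other genes was not tested.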

How the data were processed

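Hippocampal RNA of each mouse had been hybridised to an Affymetrix mouse genome array. The deposited values are log2 signals that the authors made by robust multi-array average (RMA) with quantile normalization and ComBat batch correction. They were used as deposited, with no filter. All 48 arrays entered 1 model with a mean per group (limma 3.58.1, R 4.3.3), and the change, its parts and the effects at 0 h and 7 d were contrasts of it, two-sided, with Benjamini-Hochberg adjustment over all 45037 probe sets and a call at FDR 0.01. Each gene was read from its brightest probe set with a single symbol in the platform annotation (34945 probe sets had 1 symbol, 932 several and 9160 none), with _x_at probe sets only where no other existed, which gave 18193 genes, 18145 of them found by symbol in the RefSeq table. Arrays sharing at least 5 values equal within 1e-08 were taken as 1 hybridization set, since the labels give no batch.

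Named genes are those called, the list members called or with the smallest p, and, outside that rule and after their values were seen, members and probe sets at FDR 0.05, further list members, genes at 72 h and markers. Members and the 41 gene lists (23 pathway, 18 marker) were chosen with earlier results of these data known, so no p is given over a list. The fit was tested on simulated data. Alternatives were other arrays, weights, filters, priors, normalization, a set block and leaving out each mouse. The number of arrays limits the precision.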

Additional observations from a re-analysis of the deposited data

Results flagged for a closer look

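The CIE effect differed between 72 h and 8 h by the test of the difference itself for 10 probe sets, with changes of -0.90 and -1.07 (Tsc22d3), -1.17 (Plin4), -0.75 (Fcgr2b), -0.86 (1424923_at), -0.61 (1458314_at), -2.16 (H2-Aa), -1.19 (H2-Ab1), -0.57 (Depp1) and 1.20 (both alpha-globin genes, 1428361_x_at).

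Single mice stood apart from the other 5 of their group in 8 of 144 groups examined, over 36 probe sets, where chance gives about 1 in 20 groups. The probe sets were Plin4 in Ctrl 72 h mouse 68 (5.85, next 6.10), Fcgr2b in CIE 72 h mouse 35 (7.27, next 6.99), 1424923_at in Ctrl 8 h mouse 4 (5.67, next 5.44) and H2-Ab1 in CIE 72 h mouse 61 (4.77, next 5.02). The others were Cxcl10 in CIE 8 h mouse 25 (8.09, next 7.73), Bmp4 in Ctrl 72 h mouse 44 (5.78, next 6.04) and in CIE 8 h mouse 69 (6.56, next 6.20), and H2-D1 in CIE 72 h mouse 61 (6.46, next 7.11). Mouse 61 was thus the lowest CIE mouse of 72 h for both MHC probe sets.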

How the results depend on the processing

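None of the 58 probe sets at FDR 0.05 reversed its direction in the 6 other fits that held it, nor the 10 called ones without any 1 mouse. The number called moved more. Against 9 lower and 1 higher probe sets and 3 lower and 0 higher genes, the hybridization set as a block gave 0 lower, 0 higher and 0 genes. Leaving out dim probe sets gave 4 lower and 1 gene lower, but it removed some called ones before the test. Those of the 10 that it tested, 5, were all called again (adjusted p 0.0037 to 0.00912). Outside the CIE mice of 8 h, the called Plin4, H2-Aa and H2-Ab1 probe sets and those without a symbol had group means of 4.16 to 6.27, below the array medians. The eBayes fit with trend and robust options gave 0 higher, and array weights gave 177 lower and 79 higher probe sets, 99 lower and 35 higher genes. At FDR 0.05 there were 47 lower and 11 higher probe sets, 22 lower and 7 higher genes, and at that threshold the 58 probe sets became 13 with the block, 52 with trend and robust options, 56 with quantile normalization once more, 105 without dim ones, 236 with only the 24 arrays and 896 with array weights. Leaving out 1 mouse gave 0 to 35 lower and 0 to 3 higher probe sets, 0 to 19 lower and 0 to 1 higher genes. At most 5 lower probe sets remained to be called without Ctrl mice 32, 42 and 79 of 8 h, Ctrl mice 16, 24 and 68 of 72 h, CIE mice 21, 23 and 25 of 8 h, or CIE mice 29, 33 and 61 of 72 h. The block left 32 of the 51 calls between Ctrl mice. The cause was not tested. With only the 24 arrays, 5 of the 10 called probe sets were called again, with quantile normalization once more 10, and with array weights 10. The block cannot move an estimate, since each set holds 1 mouse of each group, and so bears only on the tests. Mouse numbers pair no samples, so the hybridization set was the one matching available. Signals lack detection calls, so dim probe sets carry no bound.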
